A study of Mus musculus with 18 samples.

Results

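Growth hormone (GH) was compared with control after 30 min in 3T3-F442A adipocytes, on 6 of the 18 arrays of a mouse time course. These cells come from a cultured line of mouse preadipocytes, which was differentiated into fat-storing cells. The members were the 3 arrays titled GH 30 min and the 3 titled control 30 min, 1 of each from each of 3 numbered experiments, and the comparison ran across all 12422 probe sets that are not the manufacturer's controls. The other 12 arrays, not described for their own sake, are controls and GH arrays of 4 h and 48 h in the same experiments. Total RNA was read on the MG_U74Av2 chip, where 1 probe set is a group of short probes for 1 transcript. No genotype, transgene or deletion is named, and the dose of GH, the control's vehicle and the state of the culture medium are not given in the sources used here. The labels do not say that experiments were separate cultures, so each p-value reflects only the spread among these samples, which may be technical. That spread was estimated from all 18 arrays in 1 model, and so also from the arrays of 4 h and 48 h.

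GH acts through a surface receptor that has no kinase of its own and works through the bound tyrosine kinase JAK2. JAK2 activates STAT transcription factors, above all STAT5, and through adaptor proteins also the ERK and PI3-kinase pathways. Within the first hour such signals raise immediate early genes, which need no new protein for their transcription, and genes of feedback inhibitors such as the SOCS proteins, which bind JAK kinases or receptors and dampen the signal.

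Titles and descriptions disagree for 3 of the 18 arrays, and only 1 of these belongs to the 30 min comparison. The GH array of experiment 1 is titled 30 min and described as 48 h. A GH array of experiment 3 is titled 4 h and described as 30 min, and a control array of experiment 3 is titled 48 h and described as 4 h. The titles were used, since they fill each group once per experiment. The first of these arrays gave Socs3 signals of 5097 and 4530 on 2 probe sets, beside 3551 to 6210 on the other GH arrays of 30 min and 67.9 to 382 on the arrays titled GH 48 h. The array titled GH 4 h and described as 30 min gave 672 and 505. With all 3 arrays left out 5 probe sets passed the threshold used here instead of 10.

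Promoter windows are shown for 5 genes. Socs3, Zfp36 and Fos rose, and Egr2 was the next gene in order. Cish is a SOCS family member that did not pass at 30 min. The windows of Ier3, Rgs16 and Socs1, which also rose, held no match to the elements named below and are not shown. Of the Egr2 windows, 1 with matches is shown, and not every one held a match. Each window is from RefSeq on GRCm38.p6 and runs from 250 bases before to 50 bases after an annotated start, 5′ to 3′ on the gene's own strand. Capitals mark matches, on either strand, to a STAT element (the GAS element, TTCNNNGAA), to the CArG box (the element of serum response factor, searched by its usual consensus) and to TGACG, the core of the cAMP response element TGACGTCA, which it overlaps. A match is a description of letters, not a bound site.
Socs3: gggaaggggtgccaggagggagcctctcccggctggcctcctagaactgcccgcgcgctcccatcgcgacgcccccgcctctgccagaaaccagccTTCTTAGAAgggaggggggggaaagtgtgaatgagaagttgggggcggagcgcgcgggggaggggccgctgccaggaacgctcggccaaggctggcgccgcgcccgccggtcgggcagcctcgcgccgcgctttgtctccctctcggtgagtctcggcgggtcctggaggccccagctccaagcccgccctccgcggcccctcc
Zfp36: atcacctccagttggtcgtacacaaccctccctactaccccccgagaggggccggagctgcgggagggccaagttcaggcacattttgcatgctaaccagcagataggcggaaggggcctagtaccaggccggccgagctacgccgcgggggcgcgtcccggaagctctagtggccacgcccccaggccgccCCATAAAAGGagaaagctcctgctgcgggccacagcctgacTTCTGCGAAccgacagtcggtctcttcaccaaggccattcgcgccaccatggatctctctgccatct
Fos: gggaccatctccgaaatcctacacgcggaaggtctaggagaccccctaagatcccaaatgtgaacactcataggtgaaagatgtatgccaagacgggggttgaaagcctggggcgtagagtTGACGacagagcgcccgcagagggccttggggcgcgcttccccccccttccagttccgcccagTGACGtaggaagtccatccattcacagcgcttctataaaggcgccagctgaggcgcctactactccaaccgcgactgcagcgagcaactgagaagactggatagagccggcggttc
Egr2: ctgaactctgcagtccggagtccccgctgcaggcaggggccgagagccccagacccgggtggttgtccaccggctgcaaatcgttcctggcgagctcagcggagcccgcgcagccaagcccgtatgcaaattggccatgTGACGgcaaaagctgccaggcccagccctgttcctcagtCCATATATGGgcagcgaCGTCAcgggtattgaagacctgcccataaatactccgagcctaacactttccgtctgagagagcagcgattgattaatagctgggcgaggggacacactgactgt
Cish: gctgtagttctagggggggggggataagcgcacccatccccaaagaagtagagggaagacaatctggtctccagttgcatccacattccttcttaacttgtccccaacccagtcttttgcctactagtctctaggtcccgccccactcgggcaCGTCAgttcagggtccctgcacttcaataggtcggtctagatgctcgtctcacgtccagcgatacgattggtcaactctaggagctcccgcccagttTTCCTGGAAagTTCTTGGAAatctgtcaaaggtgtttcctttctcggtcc
The Socs3 window (chr11:117969317-117969616, minus strand) held 1 GAS match, TTCTTAGAA, 154 bases upstream of the start. The Zfp36 window (chr7:28379179-28379478, minus strand) held the CArG match CCATAAAAGG at 58 bases and the GAS match TTCTGCGAA at 17 bases upstream. The Fos window (chr12:85473640-85473939, plus strand) held TGACG at 129 and 66 bases upstream. Of the 5 Egr2 windows, the one shown (chr10:67537619-67537918, plus strand) held the CArG match CCATATATGG at 72 bases, with TGACG on one strand or the other at 111 and 55 bases. The Cish window (chr9:107296409-107296708, plus strand) held GAS matches at the start and 11 bases after it, and the TGACG core on the other strand 97 bases upstream. Among all 32851 windows of this length in the table, 8.3% held a GAS match, 1.63% a CArG match, 1.79% TGACGTCA and 20.8% TGACG. Counted per gene, in any of its windows, the shares of all 27025 genes were 9.55%, 1.81%, 2.03% and 23%. Of the 20 higher genes named by rule here, 15 had a window, and in any of their windows 2 of the 15 held a GAS match, 2 a CArG match, 2 TGACGTCA and 6 TGACG.

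The 6 arrays looked alike in quality. The median signal of an array was between 149.7 and 168.2 units, the 3-prime to 5-prime ratio of Gapdh from 0.778 to 0.931 and of Actb from 1.42 to 2.03, with the 2 highest Actb ratios on GH arrays of experiments 1 and 3. The part of RNA quality in the results was not tested. The highest signal of 19 yeast and Bacillus probe sets over the 18 arrays, 105.6, serves as the background limit. Adipocyte markers were present, as labelled: all 13 measured adipocyte markers were above that limit, led by Adipoq (adiponectin) at 26643 to 36277. Of the preadipocyte and fibroblast markers 11 of 12 were above it and Vim was not. Dlk1, which preadipocytes lose as they differentiate, stood at 7167 and 7015 in experiment 3 against 2070 to 3868 in the others. Postn, of the same list, did not share that order. In experiments 1, 2 and 3 it read 5564, 4720 and 3990 in controls and 5446, 4575 and 5733 with GH. All 5 endothelial markers and the leukocyte markers Ptprc, Itgam and Adgre1 were below the background limit. Above it were 2 of 7 macrophage markers (Cd14 and Cd68) and 4 of 5 skeletal muscle markers (all but Myog). No marker of any list passed the test, which is nothing particular to them where 0.0805% of all probe sets passed. Summed adipocyte signals were 91352 to 117588 in controls and 92538 to 129682 with GH. In such bulk RNA, more cells of a type and more RNA per cell cannot be told apart.

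After 30 min of GH, 10 probe sets of 8 genes differed from control. RNA rose for the feedback inhibitors Socs3 and Socs1, the early genes Fos, Ier3 and Phlda1, the mRNA-decay factor Zfp36 and the G-protein regulator Rgs16. RNA for 1 gene, Prp2, fell. The 10 are 0.0805% of all probe sets, 9 of them higher (0.0725%) and 1 lower (0.00805%), by limma with the experiments as a replicate block and Benjamini-Hochberg adjusted p under 0.05. Changes below are differences of log2(signal + 25) with their standard error, and signals are in array units, so that levels are not compared between genes.

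Socs3, whose protein inhibits JAK kinases, had the largest change of the 10. It had control signals of 468, 454 and 503 in experiments 1, 2 and 3 on an _f_at probe set, a kind that can read related transcripts. With GH the same probe set read 5097, 3551 and 4241. The lowest GH array was thus far above the highest control. The change was 3.10 ± 0.21 (adjusted p = 1.68e-05), a ratio of mean signals of 9.05. The second Socs3 probe set, of the plain _at kind, went from 313, 416 and 219 to 4530, 6210 and 5032, a change of 3.98 ± 0.42 (adjusted p = 0.00174).

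Socs1, a second inhibitor of JAK kinases, had control signals of 239, 250 and 236. Its GH signals were 528, 791 and 724. The controls were nearly equal and the groups did not overlap, with a change of 1.39 ± 0.21 (adjusted p = 0.0334). Socs2, which limits GH signalling in mice, stayed below the background limit on every array, with 40.7, 23.5 and 11.3 in controls and 64.1, 71 and 92.4 with GH, and did not pass (1.04 ± 0.32, adjusted p = 0.999). Cish, a STAT5-induced inhibitor, had overlapping signals of 237, 101 and 139 in controls and 218, 113 and 218 with GH. Of the 8 SOCS family genes listed 5 were measured, 2 rose (0.0725% of all probe sets did) and none fell. Their median change was 1.04, which is the value of the dim Socs2, beside -0.03 over all probe sets.

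Fos, the AP-1 subunit and classical immediate early gene, had control signals of 914, 1152 and 3242. Its GH signals were 5529, 5408 and 7900. The groups did not overlap, and experiment 3 was the highest in both groups. The change there (1.28) was smaller than in experiments 1 (2.56) and 2 (2.21). The fitted change was 2.02 ± 0.33 (adjusted p = 0.0421), and a second Fos probe set was below the background limit on all 6 arrays. Among 12 measured AP-1 subunits Fos alone passed (0.0805% of all probe sets did). Of the 12, 4 had non-overlapping groups with GH higher (2.32% of all probe sets did), and the list's median was 0.11. Junb, a partner of Fos in AP-1, read 2597, 3353 and 3216 in controls and 6337, 7627 and 5466 with GH on an _r_at probe set, and did not pass (1.07 ± 0.34, adjusted p = 0.999).

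Ier3, a stress-inducible early gene tied to cell survival, had control signals of 3019, 3059 and 2379. With GH they were 12303, 9870 and 5877. The change was 1.67 ± 0.19 (adjusted p = 0.00247), and it was largest in experiment 1 (2.02) and smallest in experiment 3 (1.30). Phlda1, another early gene induced by growth factors, read 121, 268.5 and 363 in controls and 794, 1208.5 and 1775 with GH. Here the signal was highest in experiment 3 in both groups while the change was alike in all (2.49, 2.07 and 2.21), and the fitted change was 2.26 ± 0.31 (adjusted p = 0.0108). Of 13 measured genes of ERK feedback and output these 2 rose and none fell, where 0.0725% of all probe sets rose and 0.00805% fell, with a list median of 0.19.

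Zfp36, or tristetraprolin, binds AU-rich elements and promotes decay of mRNAs. Its _s_at probe set read 2066, 2643 and 1925 in controls and 5604, 7372 and 4869 with GH. Control and GH signals did not overlap and the change was nearly the same in each experiment (1.43, 1.47 and 1.33), with a fitted value of 1.41 ± 0.22 (adjusted p = 0.041). It was the 1 of 6 measured members of the ZFP36 and BTG families that passed (0.0805% of all probe sets did). All 6 were above 0 (43% of all probe sets were) and 5 were higher in 3 of 3 experiments (9.33% of all), with a median of 0.61. Zfp36l2, a relative of Zfp36, read 2338, 2870 and 3005 in controls and 4357, 4854 and 5622 with GH (0.85 ± 0.23, adjusted p = 0.685).

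Rgs16 speeds the GTPase of G-protein alpha subunits and so ends their signal. One probe set read 920, 827 and 564 in controls and 2637, 2323 and 3050 with GH, a change of 1.78 ± 0.21 (adjusted p = 0.0028). The other read 253, 296 and 209 in controls and 893, 788.5 and 1210 with GH, a change of 1.82 ± 0.22 (adjusted p = 0.00335). Both probe sets had the lowest control and the highest GH signal in experiment 3. Their change was largest there (2.39 and 2.40), in the experiment where that of Fos was smallest. None of the other 11 measured RGS genes passed, and the median of the 12 was 0.07. Over all probe sets 0.0805% passed, a share at which none among 11 is nothing particular to them.

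Prp2, named for a proline-rich protein, had control signals of 657, 700 and 556 and GH signals of 79.6, 79.5 and 65 on an _i_at probe set, below the background limit on all GH arrays. The change was -2.73 ± 0.45 (adjusted p = 0.0495). Control arrays of the other times did not hold that level, with 92.3, 80.7 and 77.2 at 4 h and 71.2, 476 and 465.5 at 48 h. Its _r_at probe set read 256, 398 and 347.5 in controls and 119, 151 and 183 with GH and did not pass (-1.02 ± 0.51, adjusted p = 0.999).

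**Figure D1:**
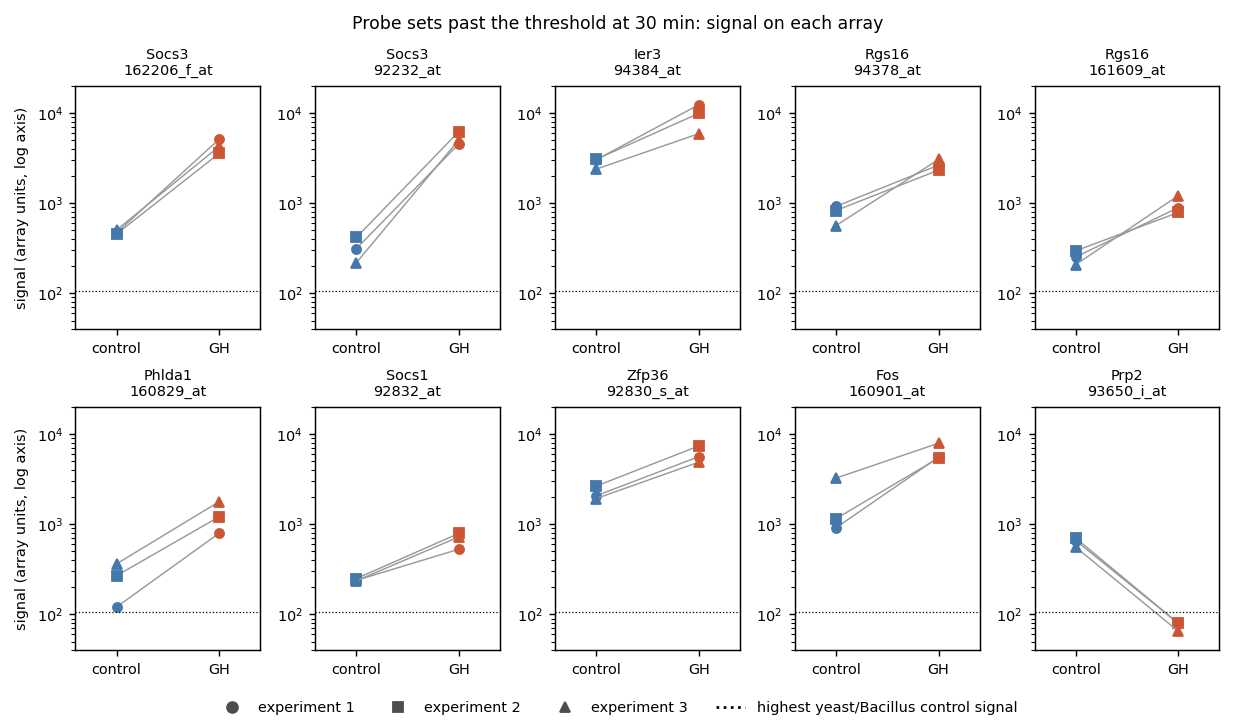
Signal on each of the 6 arrays of 30 min for the 10 probe sets that passed, on a log axis in array units. Grey lines join control and GH of 1 experiment, marker shapes give the experiment, and the dotted line is the background limit of 105.6. In every panel the control and GH arrays do not overlap, and the Prp2 probe set is the one that is lower with GH.

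The size of the call set depended on the model and on single arrays. Without the replicate block 5 probe sets passed (0.0403%), all 5 among the 10: both of Socs3, both of Rgs16 and Socs1, so that the calls of Fos (adjusted p = 0.173), Ier3 (0.386), Phlda1 (0.386), Zfp36 (1) and Prp2 (0.0518) rest on the block. Over the 6 arrays alone limma called 0, with 634 at unadjusted p under 0.05 beside 449 (3.61%) over all 18 arrays. Leaving out single arrays gave 5 calls (GH of experiment 2 or control of experiment 1), 6 (GH of experiment 1 or 3, or control of experiment 2) or 11 (control of experiment 3), and leaving out experiment 1, 2 or 3 gave 0, 1 or 2. Without the GH array of experiment 1, Phlda1 (adjusted p = 0.0674), Zfp36 (0.0635), Fos (0.233) and Prp2 (0.14) no longer passed, and Socs3, Ier3, Rgs16 and Socs1 did.

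Among the probe sets with a log2 change of at least 1 and the higher group above the background limit, 26 were higher and 26 lower, 0.209% of all in each direction. The sides differed in brightness. The median of the mean signal was 1498 for the higher ones and 117 for the lower ones. The group with the lower mean, which the choice left free, was below the limit for 4 of the higher ones (control) and 22 of the lower ones (GH). Groups did not overlap for 23 of the 26 higher and 18 of the 26 lower. Over all probe sets 2.32% were without overlap with GH higher and 4.51% with GH lower. The 26 on each side were chosen by their change on the same arrays, which favours groups without overlap, so these counts are no support. The median change of all probe sets was -0.03 and its quartiles -0.17 and 0.10.

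**Figure D2:**
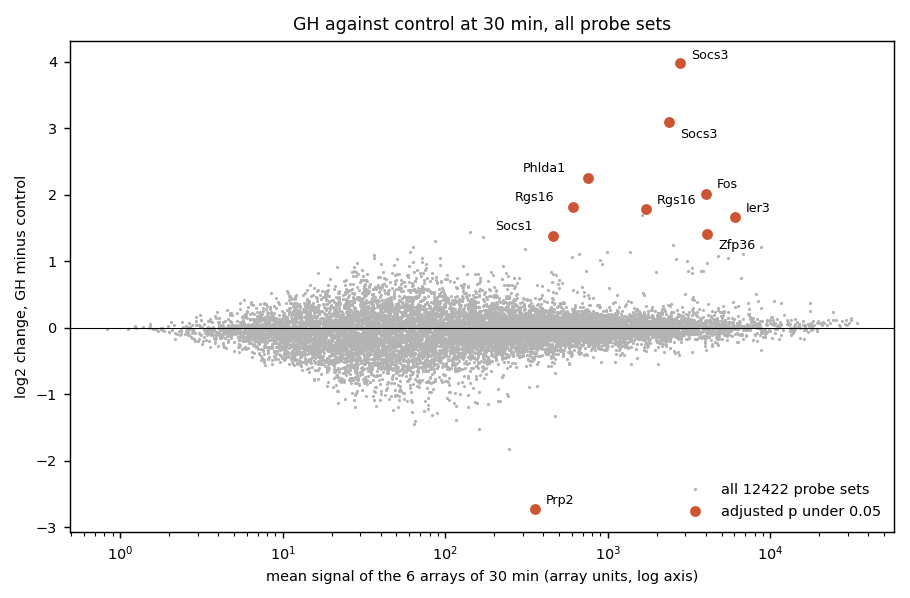
Fitted log2 change (GH minus control at 30 min) of all 12422 probe sets against the mean signal of the 6 arrays on a log axis, with the 10 that passed in colour. The coloured points on the higher side lie at middle to bright signals, and the lower-side point is Prp2.

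The next 13 higher genes by p-value, taken only where the sign was the same in 3 of 3 experiments, did not pass. All had non-overlapping groups, as 2.32% of all probe sets had with GH higher. The choice by low p-value on the same arrays favours such groups. Egr2, a zinc finger transcription factor of the early response, read 716, 500 and 1136 in controls and 2495, 2837 and 2082 with GH (1.69 ± 0.31, adjusted p = 0.0996). As for Fos, the control of experiment 3 was the highest and the change there the smallest (0.86 beside 1.77 and 2.45). Ier2, an early nuclear protein, read 3965, 5104 and 6893 in controls and 12316, 12670 and 11325 with GH (1.22 ± 0.26, adjusted p = 0.286), and it passed without that control (adjusted p = 0.0106). Dnajb1, a heat shock co-chaperone, read 427, 500 and 882 in controls and 1182.5, 1359 and 1043 with GH (1.02 ± 0.26, adjusted p = 0.496). These 3 genes share the raised control of experiment 3.

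Btg2, an antiproliferative factor that recruits deadenylases, read 3567, 3815.5 and 2985 in controls and 8653, 9506 and 4424 with GH (1.05 ± 0.21, adjusted p = 0.161). Pim3, a survival kinase and STAT target, read 2197.5, 3352 and 2381 in controls and 3956, 6258 and 4243 with GH. Its experiments were nearly equal in change (0.84, 0.90 and 0.83), and the fit gave 0.85 ± 0.17 (adjusted p = 0.161). Gadd45g, a growth arrest and stress sensor, read 240.5, 335 and 599 in controls and 605.5, 737 and 1101 with GH (1.06 ± 0.21, adjusted p = 0.161). Its highest control and lowest GH array were nearly equal, although within each experiment GH was higher by 0.85 to 1.25. Dusp6, the phosphatase that switches off ERK, read 447, 543.5 and 558 in controls and 816, 935 and 1110 with GH (0.85 ± 0.19, adjusted p = 0.307). Errfi1, a feedback inhibitor of the EGF receptor, read 2165, 1981 and 1834 in controls and 5521, 3918 and 2950 with GH (1.00 ± 0.23, adjusted p = 0.344). Its other probe set read 1287, 1243 and 1508 in controls and 3417, 2948 and 1414 with GH, with overlapping groups and a change of -0.09 in experiment 3 (0.84 ± 0.28, adjusted p = 0.999).

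The remaining 5 were factors of transcription and inflammation. Atf3, a stress-induced member of the ATF family, was measured on an _r_at probe set with controls below the background limit (32.2, 97.9 and 74.2, against 208, 251 and 191 with GH). Its brighter _f_at probe set read 369, 465 and 285 in controls and 626, 731 and 518 with GH, and neither passed (1.44 ± 0.33 and 0.72 ± 0.28). Cited2, a co-regulator that binds CBP and p300, read 1706, 2579 and 2564 in controls and 3417.5, 4329 and 5105 with GH (0.91 ± 0.21, adjusted p = 0.353). Nfkbiz, a nuclear member of the I-kappa-B family, read 1325, 2004 and 1859 in controls and 3562, 3734 and 3264 with GH (1.03 ± 0.25, adjusted p = 0.413). Ccl7, a monocyte-attracting chemokine, read 1813, 1602 and 1069 in controls and 3840, 3290 and 3397 with GH (1.25 ± 0.31, adjusted p = 0.476). Id1, an inhibitor of basic helix-loop-helix factors, had the smallest change of the 20 named higher genes (0.52 ± 0.13).

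The named genes differed in how the experiments were ordered. For 13 of the 20 higher genes experiment 3 had the smallest change and for 12 experiment 1 had the largest, beside 37.3% and 46.9% of the 1159 probe sets higher in 3 of 3 experiments. The highest control was that of experiment 3 for 9 genes, of experiment 2 for 8 and of experiment 1 for 3, and it was that of experiment 3 for 43.1% of the 1159. The medians over all probe sets were -0.05, 0.00 and -0.04 in experiments 1, 2 and 3. Egr1, a zinc finger early gene named after its values were seen, also had its highest control in experiment 3 (3206, 3956 and 5995.5, against 7566, 9873 and 10304 with GH). So did the nuclear receptor Nr4a1, also named after its values were seen, whose groups overlapped (1900, 2847 and 4776 in controls and 4354, 3448 and 3844 with GH). Experiment 3 is also the one with the highest Dlk1, while its control had the lowest Postn of the 30 min controls. The part of these differences in the changes was not tested.

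Control levels of several early genes were high at 30 min compared with later controls, a description with no test, for genes chosen after their values were seen. Fos was 52.4 to 65 in the 3 controls of 4 h and 39.1 to 90.4 in those of 48 h, below the background limit, against 914 to 3242 at 30 min. Egr1 was 195 to 361 and 118 to 252 in the later controls, against 3206 to 5995.5. Ier3 was 309 to 805 and 452 to 746, against 2379 to 3059, and Zfp36 was 301 to 588 and 145 to 399, against 1925 to 2643. Socs3 had controls of 454 to 503 at 30 min, 308 to 476 at 4 h and 247 to 378 at 48 h on its _f_at probe set, and means of 316, 214 and 132 on its plain one. The changes with GH at 30 min were thus measured against controls in which Fos, Egr1, Ier3 and Zfp36 were higher than in later controls, and the cause was not tested.

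On the lower side, the 9 genes after Prp2 did not pass, and most were dim. Of the 10 named lower genes 7 had GH means below the background limit and 4 were read by probe sets of another kind than plain _at. Groups did not overlap for 5 of the 10, as for 4.51% of all probe sets with GH lower. The choice by low p-value favours such groups. Prkd2, a kinase of the protein kinase D family, read 352, 177 and 229 in controls and 45, 86.1 and 80.3 with GH on an _r_at probe set (-1.52 ± 0.30, adjusted p = 0.161), while its plain probe set changed by 0.00 ± 0.32. Hic1, a transcriptional repressor, read 130, 122 and 158 in controls and 34.5, 38.1 and 52.3 with GH (-1.28 ± 0.29, adjusted p = 0.344), and its other probe sets changed by 0.03 and -0.18. Pdxk, pyridoxal kinase, differed by -1.40 ± 0.32 on a dim probe set and by -0.10 ± 0.16 on one that read 1056 to 1402 in controls and 991 to 1337 with GH. For these genes the probe sets of 1 gene thus gave different values.

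Yif1a, a protein of transport between endoplasmic reticulum and Golgi, was the brightest of the lower genes, with 1318.5, 1737 and 1916 in controls and 870.5, 1115 and 1418 with GH. Its groups overlapped although GH was lower in each experiment (-0.55 ± 0.13, adjusted p = 0.353). Med11, a Mediator subunit, read 421, 275 and 300 in controls and 178, 199 and 258 with GH (-0.59 ± 0.17, adjusted p = 0.849). Tyms-ps, a thymidylate synthase pseudogene (-1.32 ± 0.29), Psca, a surface antigen (-0.97 ± 0.24), Arhgap9, a GTPase activator (-0.84 ± 0.21), and Zfp787, a zinc finger gene (-1.82 ± 0.53), had overlapping groups and adjusted p of 0.307 to 0.815. Other probe sets changed by 0.03 ± 0.23 for Tyms-ps, -0.17 ± 0.13 for Arhgap9, and 0.34 ± 0.40 and 0.08 ± 0.20 for Zfp787. Of these only the last had a group mean above the background limit.

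The gene lists describe values beyond single calls. They were chosen with earlier results of these data known, so their counts, here and above, are a description and not support. Of 18 measured EGR, NR4A, KLF and other early transcription factors none passed, but 16 had a change above 0 (43% of all probe sets did), 11 were higher in 3 of 3 experiments (9.33% of all) and 7 had non-overlapping groups with GH higher (2.32% of all), with a median of 0.45. Of 16 other STAT targets none passed, with a median of 0.18. Irf1, an interferon-response factor, read 2338, 2759 and 1521 in controls and 3649, 5209 and 3124 with GH (0.86 ± 0.23, adjusted p = 0.673). Cebpd, an early C/EBP factor of adipocyte differentiation, read 2847, 2623 and 1624 in controls and 5043, 4509 and 3036 with GH (0.83 ± 0.34, adjusted p = 0.999). Of 22 chemokine and acute-phase genes none passed, 18 were above 0 and 13 were higher in 3 of 3 experiments, beside the same 43% and 9.33% of all, with a median of 0.23. Of 17 secreted and surface early products none passed, and the lowest p belonged to Ccn1, a matrix-associated growth factor-inducible protein (834, 718 and 976 in controls, 2237, 1649 and 1800 with GH, 1.15 ± 0.30, adjusted p = 0.608). None of 8 growth arrest genes passed (median 0.13). Over all probe sets 0.0805% passed, a share at which no call in lists of this size is nothing particular to them.

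No measured gene of the GH receptor pathway was called. Of 27 measured components of the receptor pathway 0 were at unadjusted p under 0.05 in limma, beside 3.61% of all probe sets. At that share a count of 0 among 27 is nothing particular to the pathway. Their median was -0.03, beside -0.03 over all probe sets. The receptor gene Ghr changed by 0.03 ± 0.17 on an _s_at probe set, Jak2 by -0.06 ± 0.18, Stat5a by -0.11 ± 0.11 on an _i_at probe set and Stat5b by 0.05 ± 0.25, these 4 being picked for their place in the pathway. The lowest p-values of the list belonged to Map2k2, an ERK pathway kinase (-0.29 ± 0.15), Grb2, an adaptor (0.24 ± 0.15), and Stat6 (-0.16 ± 0.13).

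No gene in the lists of fat cell functions, insulin signalling, the cytoskeleton and the respiratory chain was called, beside 0.0805% of all probe sets. At that share a count of 0 in lists of this size is nothing particular to them. None of 20 adipocyte lipid and hormone genes passed (median -0.04), nor of 14 C/EBP and lipogenic factors (-0.03), 12 insulin signalling genes (0.01), 16 serum response factor targets of the cytoskeleton (0.01) or 21 respiratory chain subunits (0.00). Lep, leptin, had non-overlapping signals of 572, 463 and 504 in controls and 378, 240 and 417 with GH, but did not pass (-0.57 ± 0.28, adjusted p = 0.999). Lpl, lipoprotein lipase, read 24249, 22536 and 19651 in controls and 28421, 29855 and 21050 with GH (0.24 ± 0.15). Among respiratory subunits Sdhd, of succinate dehydrogenase, had the lowest p (-0.27 ± 0.13, adjusted p = 0.999).

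**Figure D3:**
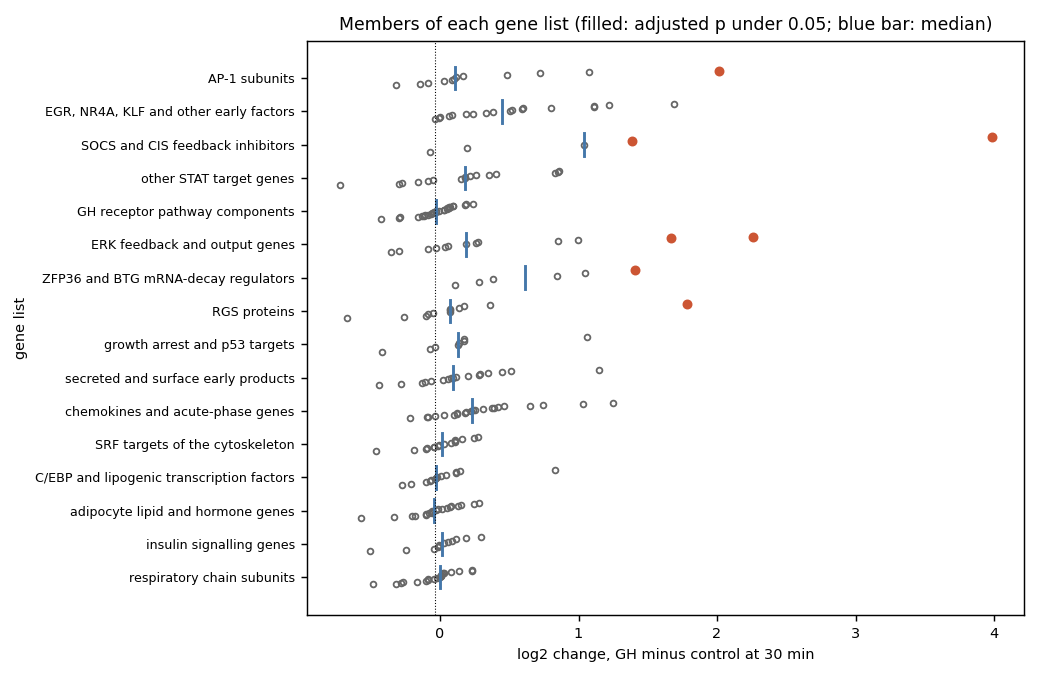
Fitted log2 change at 30 min of each measured gene, by gene list, with filled points for genes that passed, blue bars for list medians and a dotted line at the median of all probe sets (-0.03). Filled points lie in the SOCS, AP-1, ERK feedback, ZFP36 and BTG, and RGS lists. The medians of the receptor pathway, lipid and respiratory lists lie near the dotted line.

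Whether a GH effect at 30 min differed from the later ones was tested as the difference of 2 effects in the same model. Against 4 h, 9 probe sets differed (0.0725%), 4 with the effect at 30 min higher (0.0322%) and 5 lower (0.0403%). Socs3, Zfp36 and Ier3 were 3 of the 4, with differences of 2.67 ± 0.30 (adjusted p = 0.00543), 2.36 ± 0.32 (0.0111) and 1.86 ± 0.26 (0.0168). At 4 h their own changes were 0.42, -0.95 and -0.19, none of which passed. The plain Socs3 probe set did not differ past the threshold (3.08 ± 0.59, adjusted p = 0.117). Its own change at 4 h was 0.90 ± 0.42 and did not pass (adjusted p = 0.483). Without the replicate block Zfp36 (adjusted p = 0.657) and Ier3 (0.739) lost the call. The other was Myc, the growth-promoting transcription factor, at 0.60 ± 0.15 at 30 min (adjusted p = 0.516) and -1.11 ± 0.15 at 4 h (adjusted p = 0.0059), a difference of 1.71 ± 0.22 (adjusted p = 0.00753). Myc signals were 773, 923 and 719 in controls and 1132.5, 1342 and 1217 with GH at 30 min, and 528, 398 and 396 in controls and 229.5, 155 and 188 with GH at 4 h. Myc and the genes of the next paragraph fall outside the naming rule and were named after their values were seen.

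The 5 with the lower effect at 30 min were Pik3r1, Cish, Gdf5, Adipor2 and the _r_at probe set of Prkd2. Pik3r1, the regulatory subunit of PI3-kinase, read 140, 222 and 163 in controls and 124, 180 and 127 with GH at 30 min, and 1026, 1561 and 523.5 with GH at 4 h. The difference was -2.65 ± 0.31 (adjusted p = 0.00543). Cish differed by -2.31 ± 0.29 (adjusted p = 0.00753), with GH signals of 896, 904 and 821 at 4 h. Adipor2, an adiponectin receptor, differed by -1.17 ± 0.18 (adjusted p = 0.0313) and Gdf5, a growth factor of the BMP family, by -1.59 ± 0.24 (adjusted p = 0.0302). Prkd2 differed by -2.62 ± 0.43 (adjusted p = 0.0462), with neither of its effects called.

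Against 48 h, 22 probe sets differed (0.177%), 11 (0.0886%) in each direction, and this test shares the arrays of 30 min with the one against 4 h. Both Socs3 probe sets were among the higher ones, with differences of 2.75 ± 0.30 (adjusted p = 0.00229) and 3.92 ± 0.59 (adjusted p = 0.016), as were Ier3 (1.61 ± 0.26, adjusted p = 0.0287) and Myc (1.59 ± 0.22, adjusted p = 0.0105). Dusp6 was at 0.85 ± 0.19 at 30 min and at -1.33 ± 0.19 at 48 h (adjusted p = 0.00384), a difference of 2.18 ± 0.27 (adjusted p = 0.00588). Ccl7 was at 1.25 ± 0.31 and at -1.42 ± 0.31 (adjusted p = 0.0458), a difference of 2.67 ± 0.44 (adjusted p = 0.0295). On the lower side stood Igf1, Igfbp3, Igfals and Ghr among others. Igf1, the growth factor that carries many GH actions, was below the background limit at 30 min in both groups and reached 410, 500 and 835 with GH at 48 h on a _g_at probe set, a difference of -3.46 ± 0.29 (adjusted p = 0.000255). Igfbp3 (-2.60 ± 0.38, adjusted p = 0.0123) and Igfals (-2.24 ± 0.37, adjusted p = 0.0305), carriers of IGF1, and Ghr (-1.37 ± 0.23, adjusted p = 0.032) also differed. Without the replicate block 2 probe sets differed from 4 h (0.0161%) and 8 from 48 h (0.0644%): Socs3 and Myc in the first, and both probe sets of Socs3, Dusp6, Cd1d1, Myc, Adipor2, Klf4 and an unnamed one in the second. Leaving out experiment 1 or experiment 2 left 0 for both differences, and leaving out experiment 3 gave 9 and 25.

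Of the 10 probe sets called at 30 min, 2 were called at 4 h, among 45 in all (0.362%), and 2 at 48 h, among 158 (1.27%). Both times these were the 2 of Rgs16, whose changes on the first probe set were 1.78 at 30 min, 1.46 at 4 h and 1.99 at 48 h. Its controls read 564 to 920 at 30 min, 346 to 507 at 4 h and 301 to 461.5 at 48 h. The differences between its effects, 0.32 (adjusted p = 0.834) and -0.21 (adjusted p = 0.9), did not pass. Gadd45g, not called at 30 min, was at 2.27 ± 0.21 at 4 h (adjusted p = 0.000169) and 2.13 ± 0.21 at 48 h (adjusted p = 0.000371), and its differences from 30 min did not pass (adjusted p = 0.306 and 0.24). For Fos, Phlda1 and Socs1 the later changes were smaller and not called, and the differences did not pass either: against 4 h they were 1.80, 1.22 and 1.24 (adjusted p of 0.333, 0.529 and 0.306).

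**Figure D4:**
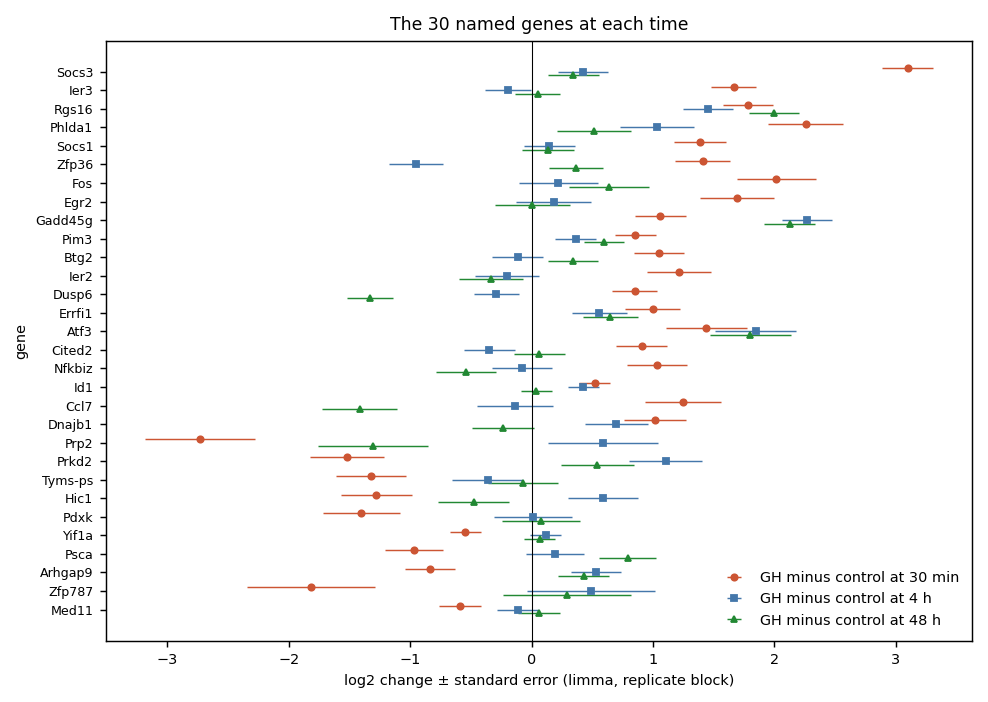
Log2 change with GH at 30 min, 4 h and 48 h, with standard errors from limma with the replicate block, for the 20 higher and 10 lower named genes. Socs3, by its _f_at probe set, is at 3.10 at 30 min, 0.42 at 4 h and 0.34 at 48 h. Rgs16 is above 1 at all times, and Dusp6 and Ccl7 change side between 30 min and 48 h.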

How the data were processed

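Per the file headers and labels, 18 MG_U74Av2 arrays were deposited with 1 linear intensity for each probe set. How the authors summarised and scaled these intensities is not given in the sources used here. All 18 arrays shared a trimmed mean of 500.3 (2% trimmed per end), so values were scaled before deposit, and a change is relative to most other probe sets. With 3 arrays in a group, their number limits precision.

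Of 12488 probe sets, 66 of the manufacturer's controls were left out, and among the 12422 tested the platform annotation gives 1 symbol for 10833, several for 396 and none for 1193. By gene identifier 10817 matched the reference gene table, 0 with another symbol. Letters before _at (_f, _r, _s, _i, _g) mark designs that may cross-react with similar transcripts or that met fewer design criteria. Deposited intensities were analysed as log2(signal + 25), without further normalization, by limma 3.58.1 in R 4.3.3, two-sided, in 1 model of 6 groups with the experiment as a block (10 residual degrees of freedom), adjusted by Benjamini-Hochberg over all 12422 at a threshold of 0.05. The block was used because samples are paired by experiment number. Deviations from group means correlated at 0.225, 0.233 and 0.457 between GH and control of the same experiment, and at -0.251 to 0.0476 across experiments. Deviations cancel within each group of 3 arrays, so the values across experiments are no separate check of the pairing. The 3 arrays whose descriptions name another group were kept by title, and left out as an alternative. No date or scanner entry was available as a batch.

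Named genes, among probe sets with 1 gene symbol, are those called, then those of lowest p with the same sign in 3 of 3 experiments and the higher group above the background limit of 105.6, to 20 higher and 10 lower, and the 3 of lowest p in each list. A list member is read by its brightest probe set, so that Atf3 appears by different ones. The members and lists were chosen with earlier results of these data known, and lists are described, not tested. The code was tested on simulated data. Python 3.11.15 with pandas 2.3.3 was used for summaries, and RefSeq windows on GRCm38.p6 for promoters. Alternatives were the model without block, the 6 arrays alone, 5 or 100 added, quantile normalization, dim probe sets left out, a variance trend, and arrays or experiments left out.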

Additional observations from a re-analysis of the deposited data

Results flagged for a closer look

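For 4 of the 30 genes named by rule the GH effect at 30 min differed from that at 4 h by limma's test of the difference with the replicate block. The difference (30 min minus 4 h, log2) was 2.67 ± 0.30 for Socs3 on its _f_at probe set (adjusted p = 0.00543), 2.36 ± 0.32 for Zfp36 (0.0111), 1.86 ± 0.26 for Ier3 (0.0168) and -2.62 ± 0.43 for the _r_at probe set of Prkd2 (0.0462). For 4 of the 30 it differed from that at 48 h: by 2.75 ± 0.30 for Socs3 (0.00229), 2.18 ± 0.27 for Dusp6 (0.00588), 1.61 ± 0.26 for Ier3 (0.0287) and 2.67 ± 0.44 for Ccl7 (0.0295). Over all probe sets 9 differed from 4 h and 22 from 48 h. Both tests share the arrays of 30 min. Without the replicate block Socs3 and Dusp6 kept these calls, and Zfp36, Ier3, Prkd2 and Ccl7 did not (adjusted p of 0.0653 to 0.739).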

How the results depend on the processing

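Against 10 probe sets called at 30 min, 5 passed with no replicate block, 0 over the 6 arrays alone, 5 with 5 added to each signal, 6 after quantile normalization and 5 without the 3 arrays described as another group. With 100 added, without dim probe sets and with a variance trend 12, 11 and 13 passed. Leaving out an experiment or an array gave 0 to 11. Against 9 for the difference from 4 h, the count was 2 with no replicate block, 14 with 100 added, 18 without dim probe sets, 14 with the trend, and 0 to 9 with an experiment left out. Against 22 for the difference from 48 h, it was 8 with no replicate block, 12 with 5 added, 51 with 100 added, 45 without dim probe sets, 71 with the trend, and 0 to 25 with an experiment left out. No value of a named gene changed sign under these alternatives. The Socs3 _f_at probe set passed in 15 of 17 alternatives at 30 min (adjusted p of 3.11e-07 to 0.0581), its other probe set in 14, those of Rgs16 in 13 and 12, Ier3 in 11, Phlda1 in 7, Socs1 in 6, Zfp36 and Fos in 4 each and Prp2 in 3. Egr2 passed with 100 added (adjusted p = 0.0102), without dim probe sets (0.0377) and with the trend (0.0298). The causes were not tested, beyond fewer arrays or probe sets where these were left out. Dim signals, near or below the background limit of 105.6, limit Prp2, Socs2 and most lower genes.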
